A study of Mus musculus with 24 samples.

Results

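The let-7 family is a group of small RNAs that silence messenger RNAs through the seed, the bases near the 5′ end of the miRNA that pair with the target. It was found in worms as a gene that times development, and in mammals its mature forms accumulate as cells stop dividing, while the RNA-binding proteins LIN28A and LIN28B hold back the processing of its precursors in early cells. Its known targets include Hmga2, Igf2bp1, Ras genes, and Lin28a and Lin28b themselves, and in the developing brain it is known for slowing the growth of neural progenitors and for its high level in differentiated neurons. The 10 mature strands described here were picked by name from the deposited count tables. They were 10 of the 1551 entries of each table, of which 1531 were mouse miRNAs. Of the 10, 9 were the 5′ arms (5p) of let-7a, let-7b, let-7c, let-7d, let-7e, let-7f, let-7g, let-7i, and miR-98, which are the guide strands of their hairpins. The other was let-7d-3p, the 3′ arm of the let-7d hairpin, which has another seed and is not a guide strand of the let-7 type.

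The libraries came from a study of regional miRNA levels after neonatal hypoxic-ischemic brain injury (HIBI) in CD1 mouse pups of both sexes. Small RNA was sequenced from the right cerebellum, right striatum/thalamus, and right cortex of 4 HIBI pups and 4 sham pups, which gave 24 libraries. All pups were at postnatal day 9 and had isoflurane, bupivacaine at the incision, and a neck dissection. In the HIBI pups, numbered 1, 4, 5, and 7, the right common carotid artery was cauterized, and after 2 h with the dam they spent 30 min at 8% oxygen. In the sham pups, numbered 2, 3, 6, and 8, the vessel was not ligated, and the 30 min were spent in normoxia apart from the dam. Tissue was taken 30 min later, and 200 ng of RNA went into each library. The study reads the cerebellum as a region that had hypoxia without ischemia. No group had hypoxia alone or ligation alone, so that their effects cannot be told apart. Each library was bulk tissue, in which fewer cells of a type and less RNA per cell cannot be told apart.

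The authors deposited counts of reads for every mature miRNA. The counts on mouse miRNAs ranged from 1733810 to 2940887 per library in the cerebellum of sham pups and from 1254185 to 2452740 in that of HIBI pups. They ranged from 1607306 to 2373239 and from 1272808 to 2368665 in the striatum/thalamus, and from 2160270 to 3406624 and from 1812883 to 3049198 in the cortex. The members held 8780821 of 53975348 counts, or 16.3%, and the lowest count of any member in any library was 651. Counting error was therefore small beside the spread between pups, and the closest pair of replicates, HIBI pups 5 and 7 in the cortex, had a chi-square of 26.5 for each degree of freedom. Levels below are in CPM, counts per 1000000 counts of a library, after TMM scaling of the 24 libraries together, with the pups in the order 2, 3, 6, and 8 for sham and 1, 4, 5, and 7 for HIBI. TMM divides the CPM of a library by its factor. The factors ran from 0.840 in the cerebellum of sham pup 2 to 1.24 in that of HIBI pup 1. Log2 differences come from the fit of each comparison with its own scaling. All 10 members passed the minimum average of 10 CPM in every comparison.

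The 3 miRNAs listed as markers of neurons and brain were all present in every library, with a summed level of 78900.0 to 223731 CPM. The most abundant of them was miR-9-5p in the cerebellum, with a mean of 87305 CPM, and miR-128-3p in the cortex, with 89120.0 CPM.

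The mature sequences are shown because the members differ from each other by so few bases. All 10 of 10 members were matched in the RefSeq table for GRCm38.p6. Capitals mark the seed, bases 2 to 8 counted from the 5′ end, and the first 9 strands share it.
mmu-let-7a-5p: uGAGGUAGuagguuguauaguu
mmu-let-7b-5p: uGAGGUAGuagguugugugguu
mmu-let-7c-5p: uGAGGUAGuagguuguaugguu
mmu-let-7d-5p: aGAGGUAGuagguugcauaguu
mmu-let-7e-5p: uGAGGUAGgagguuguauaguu
mmu-let-7f-5p: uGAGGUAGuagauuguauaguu
mmu-let-7g-5p: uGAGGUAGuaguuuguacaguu
mmu-let-7i-5p: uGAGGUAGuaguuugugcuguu
mmu-miR-98-5p: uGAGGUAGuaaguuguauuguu
mmu-let-7d-3p: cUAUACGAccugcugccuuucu
Each strand was 22 bases long, so that the members do not differ in length. Whether the libraries captured each sequence equally well was not tested, so the order of members below is one of read counts.

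Substitutions are counted from 1 at the 5′ end, with the base of let-7a-5p first. Let-7c-5p differed from let-7a-5p by A19G, let-7e-5p by U9G, and let-7f-5p by G12A. Let-7b-5p differed by A17G and A19G, let-7d-5p by U1A and U16C, let-7g-5p by G12U and U18C, and miR-98-5p by G11A and A19U. Let-7i-5p stood farthest from let-7a-5p, with G12U, A17G, U18C, and A19U. Of the 36 pairs among the 9 5p members, 4 differed by 1 base, 10 by 2, 11 by 3, 9 by 4, 1 by 5, and 1 by 6. How reads that fit more than 1 miRNA were counted is not stated, so reads of such near-identical strands cannot be assigned to 1 member with certainty.

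The 10 strands come from 12 hairpins. Those of let-7d (chr13:48536012-48536114), let-7f-1 (chr13:48537829-48537917), and let-7a-1 (chr13:48538179-48538272) lie on the minus strand in an exon of the lincRNA 6720427I07Rik, with 1714 and 261 bases between them. Those of let-7c-2 (chr15:85706603-85706697) and let-7b (chr15:85707319-85707403) lie 621 bases apart in an exon of Lncppara. The hairpins of let-7f-2 (chrX:151912346-151912428) and miR-98 (chrX:151913214-151913321) lie 785 bases apart in an intron of Huwe1. A second let-7a hairpin, let-7a-2 (chr9:41536716-41536811), lies in an intron of 3110039I08Rik, and let-7c-1 (chr16:77599657-77599750) in an intron of Mir99ahg. Let-7e (chr17:17830352-17830444) lies in an intron of Spaca6, let-7g (chr9:106178840-106178927) in an intron of Wdr82, and let-7i (chr10:122985640-122985724) in an exon of D630033A02Rik. Mature let-7a-5p, let-7c-5p, and let-7f-5p each have a pair of hairpins, and the counts do not separate them.

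The members took up a larger share of the mouse miRNA counts in the cerebellum than in the forebrain regions. In the cerebellum the share was 27.3, 24.2, 23.3, and 20.8% in the sham pups and 16.2, 18.7, 24.4, and 20.5% in the HIBI pups. The mean was 23.9 ± 2.71% (SD, n = 4) and 19.97 ± 3.44% (SD, n = 4), and the ranges of the groups overlapped. In the striatum/thalamus it was 13.7 ± 3.73% in sham and 13.01 ± 3.09% in HIBI pups, and in the cortex 12.7 ± 1.89% and 12.9 ± 4.43% (SD, n = 4 each), differences within the spread between pups. A sum over members was given no test.

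In each region let-7c-5p, made from Mir99ahg and from the hairpin beside let-7b, had the highest level of the 10. It ranked 1 of 1531 mouse entries by mean CPM in the cerebellum of sham pups, 3 in that of HIBI pups, 3 and 4 in the striatum/thalamus, and 4 and 5 in the cortex. At the other end, miR-98-5p, the member named outside the let-7 series, ranked between 85 and 120. Let-7d-3p ranked between 32 and 57.

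Over the 8 cerebellar libraries, means ± SD (n = 8) ran from 83971 ± 23762 CPM for let-7c-5p down to 811 ± 333 CPM for miR-98-5p. Next to let-7c-5p came let-7b-5p at 34070.0 ± 17182 CPM and let-7a-5p at 33892 ± 7948 CPM, which did not differ beyond their spread. A group at a lower level held let-7f-5p at 17371 ± 6108, let-7g-5p at 16044 ± 4922, let-7d-5p at 13355 ± 3288, and let-7i-5p at 10419.6 ± 2461 CPM, of which no neighbours differed beyond their spread. Let-7e-5p at 5339.7 ± 1149 CPM and let-7d-3p at 4435 ± 1874 CPM followed, again without a difference beyond their spread. These means pool sham and HIBI pups, between which the order of that pair turned: let-7b-5p had 44992 and let-7a-5p 38170 CPM in sham pups, and 23148 and 29614 CPM in HIBI pups. Here 2 neighbours were taken to differ when their ranges of mean ± SD did not meet, which held at each step between these groups.

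The order changed in the forebrain. In the striatum/thalamus let-7c-5p at 46487 ± 11436 CPM and let-7a-5p at 27507 ± 7455 CPM were followed by let-7b-5p at 11906 ± 2730.4 CPM, each step beyond the spread. The first step was narrow, and in the sham pups alone its ranges met, at 46604.5 ± 13743.4 and 28005 ± 9002 CPM. Within libraries the order was constant. Of the counts on the 5p members, let-7c-5p held 34.2 to 37.2% in the libraries of the striatum/thalamus and let-7a-5p 20.3 to 21.7%. Let-7e-5p at 10396 ± 2740.2, let-7f-5p at 9625 ± 3659, let-7g-5p at 9575 ± 3426, and let-7d-5p at 8977 ± 2028 CPM did not differ from their neighbours or from let-7b-5p beyond the spread. Let-7i-5p at 4757 ± 1281 and let-7d-3p at 3489 ± 1071 CPM lay below them and did not differ from each other, and miR-98-5p at 633 ± 236 CPM lay lowest. In the cortex the ranges of mean ± SD of let-7c-5p, at 43314 ± 15699.5, and let-7a-5p, at 24120.0 ± 7099 CPM, met. That rule ignores that both strands were counted in the same libraries. Of the counts on the 5p members, let-7c-5p held 24.6 to 36.8% in the cortical libraries and let-7a-5p 17.6 to 21.2%. Let-7c-5p was thus above let-7a-5p in every cortical library. Below them let-7f-5p at 13175 ± 3049, let-7g-5p at 13153 ± 2226, let-7b-5p at 10176 ± 3838, let-7d-5p at 9503 ± 1396, and let-7i-5p at 9332 ± 1205 CPM formed a run in which no neighbours differed. Let-7e-5p at 5236 ± 1923, let-7d-3p at 2364 ± 338, and miR-98-5p at 762 ± 145 CPM each lay beyond the spread of the member before it. Within these runs the order of the means also turned between sham and HIBI pups, for let-7g-5p against let-7f-5p in both regions, against let-7d-5p in the striatum/thalamus, and for let-7d-5p against let-7i-5p in the cortex.

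As a percent of the counts on the 9 5p members, let-7c-5p held 38.9 in the cerebellum, 32.8 in the cortex, and 35.9 in the striatum/thalamus (means, n = 8). In the same order let-7b-5p held 15.4, 7.72, and 9.31, and let-7a-5p held 15.8, 18.6, and 21.1. Let-7e-5p held 2.53, 3.99, and 8.04, and let-7i-5p 4.95, 7.67, and 3.68. The family was thus not a fixed mixture across regions: the part of let-7b-5p was largest in the cerebellum, that of let-7e-5p in the striatum/thalamus, and that of let-7i-5p in the cortex, by these means.

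**Figure D1:**
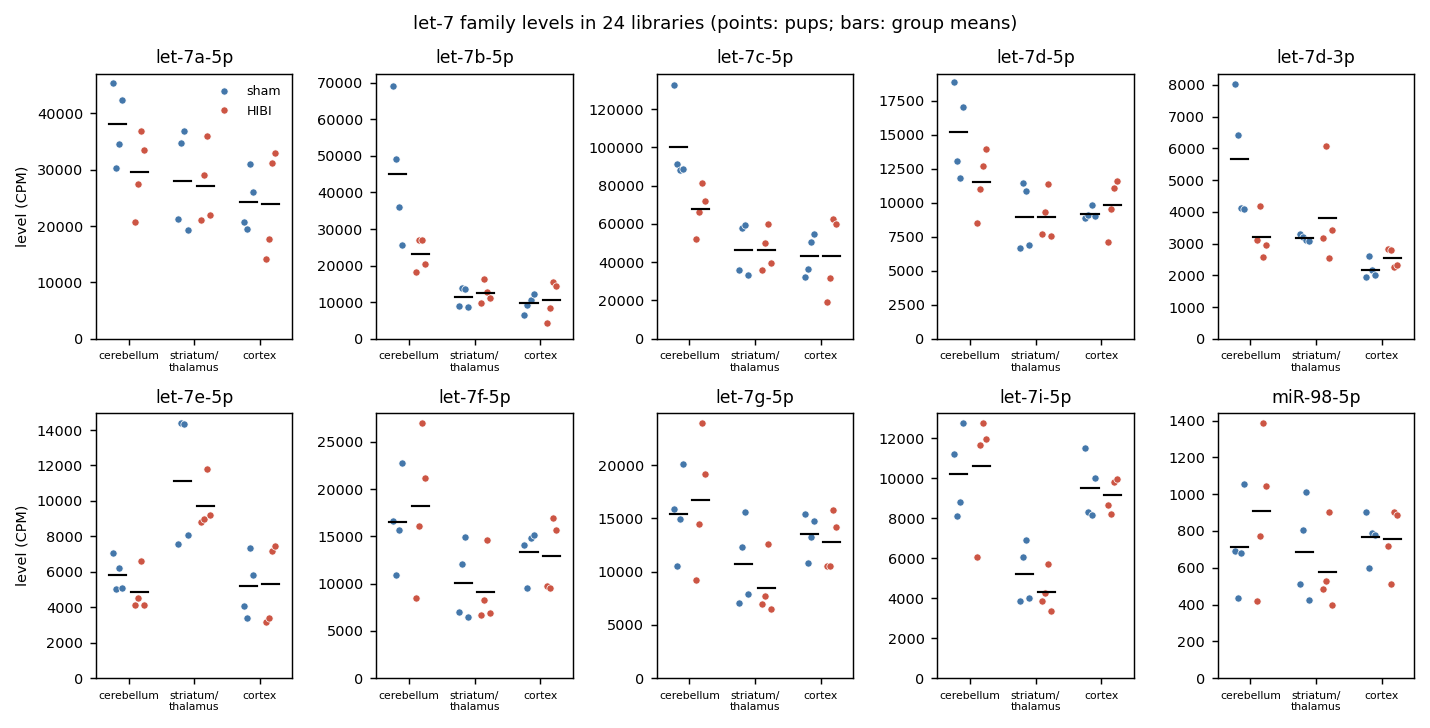
Level of each of the 10 members in CPM in the cerebellum, striatum/thalamus, and cortex, with sham and HIBI pups in separate colors. Points are the 4 pups of a group and bars are group means; the highest point is let-7c-5p in the cerebellum of sham pup 2, at 132604 CPM.

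The regional comparisons were made in the sham pups and, in other animals, in the HIBI pups, by an edgeR quasi-likelihood test with Benjamini-Hochberg adjustment over all miRNAs tested. A member was taken to differ when its adjusted p was below 0.05. The 3 comparisons of a group share libraries. In the sham pups, where 423 miRNAs were tested, 6 of the 10 members were lower and 1 was higher in the striatum/thalamus than in the cerebellum. Over all miRNAs tested, 31.2% were lower and 34% were higher, so that members that were lower made up more, and the member that was higher less, than the background share. The median log2 difference of the members was -0.67, beside -0.03 over all miRNAs. In the cortex against the cerebellum, 5 members were lower and 0 higher, beside 34% lower and 30.7% higher over all, and the medians were -0.51 and -0.13. For that count of 0, the number of members that were higher at an unadjusted p below 0.05 was also 0 in edgeR, as in DESeq2. In the cortex against the striatum/thalamus, 2 members were lower and 1 was higher, beside 22% and 16.5% over all, with medians of -0.13 and -0.06, so that neither share of the members was above the background. The median of the members was below 0 in the first 2 comparisons under every scaling tried, while in the cortex against the striatum/thalamus it turned to 0.14 with no CPM minimum, to 0.05 without pup 3, and to 0.06 without pup 6. The fit with no CPM minimum moved the median of all miRNAs by 0.13 in the cortex against the cerebellum, and the removal of a GC trend beside a pup block, an alternative described with base composition further on, moved it by 0.14 there and by 0.13 in the cortex against the striatum/thalamus.

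Let-7b-5p, a member known to repress the stem cell receptor Tlx, had the widest regional difference of the members in the sham pups, though not in the HIBI pups, where that of let-7i-5p was wider. In the cerebellum its level was 69122, 49087, 36048, and 25711 CPM in the sham pups. In the striatum/thalamus it was 9069, 13903, 13697, and 8617 CPM, and in the cortex 6552, 9233, 10702, and 12110.1 CPM. Each sham pup was highest in the cerebellum, and the groups did not overlap. The log2 difference was -1.94 for the striatum/thalamus (edgeR adjusted p 2.3e-05) and -2.27 for the cortex (edgeR adjusted p 8.81e-06), in 4 of 4 pups each. The cerebellar level in HIBI pups was 18162, 26961, 27012, and 20457 CPM. The forebrain levels were 9717, 16388, 12716, and 11137 CPM in the striatum/thalamus and 4342, 8401, 15619, and 14448 CPM in the cortex. Again every cerebellar library lay above every forebrain library, with log2 differences of -0.99 (edgeR adjusted p 0.0219) and -1.17 (edgeR adjusted p 0.0161), in 4 of 4 pups each. Among HIBI pups the call for the striatum/thalamus was lost without pup 4 (-1.07), pup 5 (-0.92), or pup 7 (-0.996), and with the GC trend removed beside a pup block (-0.38). The call for the cortex was lost without pup 4 (-1.03).

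Let-7c-5p followed the same order at a higher level. In the sham pups it was at 132604, 91096, 88279, and 88504 CPM in the cerebellum. It was at 35999, 57668, 59253, and 33498 CPM in the striatum/thalamus and at 32099, 36279, 50529.9, and 54500.0 CPM in the cortex. Cerebellar and forebrain libraries of the sham pups did not overlap. The log2 difference was -1.05 for the striatum/thalamus (edgeR adjusted p 0.000638) and -1.25 for the cortex (edgeR adjusted p 0.000197), in 4 of 4 pups each. In the HIBI pups it was lower in 4 of 4 pups as well, by log2 differences of -0.65 and -0.72 that did not pass (edgeR adjusted p 0.121 and 0.119). With the pup as a block both did, at -0.65 (edgeR adjusted p 0.0193) and -0.83 (edgeR adjusted p 0.00864). With the GC trend removed beside that block neither passed, and they were at 0.16 and -0.38.

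Let-7e-5p, made beside miR-99b and miR-125a, was the member that was higher in the striatum/thalamus. There it was at 7585, 14377, 14336, and 8103 CPM in the sham pups and at 8788, 8984, 11807, and 9187 CPM in the HIBI pups. In the cerebellum it was at 7063, 5023, 6205, and 5072 CPM in sham and 4126, 4499, 6622, and 4107 CPM in HIBI pups. In the cortex it was at 4081, 3416, 7359, and 5842 CPM in sham and 3187, 3368, 7167, and 7465 CPM in HIBI pups. All 8 libraries of the striatum/thalamus lay above all 16 others. Against the cerebellum the log2 difference was 0.97 in the sham pups (edgeR adjusted p 0.00297) and 0.91 in the HIBI pups (edgeR adjusted p 0.0187), in 4 of 4 pups each. For the cortex against the striatum/thalamus it was -1.19 in the sham pups (edgeR adjusted p 0.00190) and -0.84 in the HIBI pups (edgeR adjusted p 0.0437), in 4 of 4 pups each. In the HIBI pups the call against the cerebellum was lost without pup 4 (0.90) or pup 7 (0.86). The call for the cortex was lost without pup 1 (-0.65), pup 4 (-0.74), or pup 7 (-1.05), and with no CPM minimum (-0.77).

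Let-7i-5p, which has a hairpin of its own, was lowest in the striatum/thalamus. Its level there was 3864, 6047, 6917, and 4016 CPM in the sham pups and 3879.6, 4283, 5689, and 3361 CPM in the HIBI pups. In the cerebellum it was 11191, 8098, 8818, and 12767 CPM in sham and 6076, 11670.0, 12769.9, and 11967 CPM in HIBI pups, and HIBI pup 1 was low. In the cortex it was 11535, 8313, 8146, and 10034 CPM in sham and 8658, 8194, 9834, and 9939 CPM in HIBI pups. All 8 cortical libraries lay above all 8 of the striatum/thalamus, and in the cerebellum all but HIBI pup 1 did. The cerebellar library of HIBI pup 1 had the highest TMM factor (1.24), and by library size alone it lay above them too. Against the cerebellum the striatum/thalamus differed by -0.91 in the sham pups (edgeR adjusted p 0.000988) and -1.41 in the HIBI pups (edgeR adjusted p 0.000380), in 4 of 4 pups each. The cortex was above the striatum/thalamus by 0.78 in the sham pups (edgeR adjusted p 0.00679) and 1.12 in the HIBI pups (edgeR adjusted p 0.00600), in 4 of 4 pups each. This last difference did not pass in the sham pups without pup 2 (0.54) or pup 8 (0.71), nor in the HIBI pups without pup 7 (1.00).

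Let-7d-3p was lowest in the cortex. In the sham pups it was at 8033, 6412, 4122, and 4098 CPM in the cerebellum. It was at 3310.5, 3206, 3098, and 3072 CPM in the striatum/thalamus and at 1946, 2594, 2176, and 1998 CPM in the cortex. The 3 regions of the sham pups did not overlap. The log2 difference was -1.43 for the cortex against the cerebellum (edgeR adjusted p 4.11e-05) and -0.78 for the striatum/thalamus against the cerebellum (edgeR adjusted p 0.00389), lower in 4 of 4 pups each. For the cortex against the striatum/thalamus it was -0.65 (edgeR adjusted p 0.0208), lower in 4 of 4 pups. The last of these was lost when any pup was left out: -0.58 without pup 2, -0.73 without pup 3, -0.52 without pup 6, and -0.55 without pup 8, and it was lost at -0.36 with no CPM minimum. In the HIBI pups, at 3179.5, 6059, 2547, and 3439.8 CPM in the striatum/thalamus and 2825, 2786, 2268, and 2317 CPM in the cortex, no regional difference passed. With the pup as a block the cortex differed from the striatum/thalamus by -0.48 (edgeR adjusted p 0.0415), lower in 4 of 4 HIBI pups.

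In the sham pups let-7d-5p, the opposite arm of let-7d-3p, was lower than in the cerebellum in 4 of 4 pups, with log2 differences of -0.70 in the striatum/thalamus (edgeR adjusted p 0.00371) and -0.76 in the cortex (edgeR adjusted p 0.00263). The first was lost without pup 2 (-0.50) or pup 8 (-0.52) and with the GC trend removed beside a pup block (-0.36). The second was lost without pup 8 (-0.61) and with no CPM minimum (-0.52). Let-7a-5p was lower in the cortex than in the cerebellum in 4 of 4 pups, at -0.69 (edgeR adjusted p 0.0101), a call lost without pup 2 (-0.58) or pup 8 (-0.60) and with no CPM minimum (-0.46). Let-7f-5p was lower in the striatum/thalamus than in the cerebellum in 3 of 4 pups, at -0.65 (edgeR adjusted p 0.0323), a call lost without pup 2 (-0.54) or pup 8 (-0.27). For the cortex against the striatum/thalamus it was at 0.32 and did not pass, but did with no CPM minimum (0.58, edgeR adjusted p 0.0454), and against the cerebellum it passed in the cortex with the GC trend removed beside a pup block (-0.50). Let-7g-5p, from the Wdr82 intron, was at -0.46 in the striatum/thalamus against the cerebellum, with 2 of 4 pups lower. It did not pass there, but did without pup 3 (-0.66) or pup 6 (-0.67). MiR-98-5p passed in no regional comparison of the sham pups, and its log2 differences were 0.00, 0.08, and 0.08. The count of members that passed in the cortex against the cerebellum fell from 5 to 3 without pup 8, and that in the cortex against the striatum/thalamus from 3 to 1 without pup 2 or pup 8. Over all miRNAs, the number that passed in this last comparison fell to 95 without pup 8.

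In the HIBI pups, where 446 miRNAs were tested, 4 members were lower and 1 was higher in the striatum/thalamus than in the cerebellum, beside 27.1% and 22.4% over all miRNAs. Only let-7b-5p was lower in the cortex than in the cerebellum, and 0 members were higher by edgeR, by DESeq2, or at an unadjusted p below 0.05, beside 17.9% and 13% over all. In the cortex against the striatum/thalamus 1 was lower and 1 was higher, beside 15% and 13.7%, so that the last 2 comparisons were near the background. The medians of the members were -0.70, -0.39, and 0.05 in the 3 comparisons, beside -0.09, -0.14, and 0.01 over all miRNAs. With the GC trend removed beside a pup block the first 2 turned to 0.16 and 0.02, and the medians over all miRNAs moved by 0.25 and 0.28. The third turned to -0.01 with scaling by library size only, to -0.01 with the pup as a block, to -0.35 with the GC trend removed beside a pup block, and to -0.14 without pup 7.

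Beside let-7b-5p, let-7i-5p, and let-7e-5p, the members that passed in the HIBI pups were let-7f-5p and let-7g-5p, lower in the striatum/thalamus than in the cerebellum. Let-7f-5p was at 8532, 16135, 26996, and 21197 CPM in the cerebellum and 6652, 8310.4, 14619.9, and 6939 CPM in the striatum/thalamus. Let-7g-5p was at 9218, 14497, 23978, and 19159 CPM and 6925, 7697, 12579, and 6502 CPM. For both, HIBI pup 1 was low in the cerebellum and the regions overlapped. The log2 differences were -1.09 (edgeR adjusted p 0.0206) for let-7f-5p and -1.09 (edgeR adjusted p 0.00879) for let-7g-5p, in 4 of 4 pups each. The call for let-7f-5p was lost without pup 4 (-1.11) or pup 7 (-0.89), and that for let-7g-5p without pup 7 (-0.90). With the GC trend removed beside a pup block they were lost at -0.20 and -0.16, and let-7a-5p, at -0.24 before, was higher in the striatum/thalamus by 0.66 (edgeR adjusted p 0.00841), in 2 of 4 pups by its uncorrected level. Of the 5 members that passed in this comparison, 2 did without pup 4 and 1 did without pup 7. In the cortex against the cerebellum 0 passed without pup 4, and in the cortex against the striatum/thalamus 0 passed without pup 7, 1 without pup 1 or pup 4, and 3 without pup 5, when let-7g-5p was added at 0.89. Over all miRNAs, the number that passed in the striatum/thalamus against the cerebellum was 146 without pup 7. For the cortex against the striatum/thalamus it was 47 without pup 4 and 23 without pup 7, and in the cortex against the cerebellum it was 80 without pup 4 and 72 without pup 7.

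With the pup as a block, 8 members passed in the striatum/thalamus against the cerebellum of the HIBI pups, beside 56.5% of all miRNAs with the same block. Those added were let-7c-5p, let-7d-5p at -0.45 (edgeR adjusted p 0.0319, 4 of 4 pups lower), and miR-98-5p at -0.71 (edgeR adjusted p 0.0218, 3 of 4 pups lower), which also passed with no CPM minimum at -0.76. These 3 turned in sign and did not pass with the GC trend removed beside the block, at 0.16, 0.36, and 0.16. In the cortex against the cerebellum 2 passed, beside 39.2%. In the cortex against the striatum/thalamus 5 passed with the block, beside 39.9% of all miRNAs, so that the share of the members was near the background. Those added were let-7d-3p, let-7f-5p at 0.56 (edgeR adjusted p 0.0379), and let-7g-5p at 0.65 (edgeR adjusted p 0.0129), the latter pair higher in 4 of 4 pups. With the GC trend removed beside the block, let-7f-5p and let-7g-5p did not pass (0.08 and 0.19), let-7d-3p did (-0.48), and let-7a-5p passed there at -0.65 (edgeR adjusted p 0.0155). Among sham pups the block left the numbers that passed at 7, 5, and 3, beside 67.4%, 63.4%, and 37.4% of all miRNAs.

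Listed markers of cell types also differed between regions, and their part in the regional results was not tested. Of 20 listed miRNAs 17 were tested. In the sham pups 7 were lower in the striatum/thalamus than in the cerebellum, and 9 were lower and 1 higher in the cortex than in the cerebellum. In the HIBI pups these were 9 lower and 1 higher, and 6 lower and 1 higher. Between the cortex and the striatum/thalamus, 4 were lower and 3 higher in the cortex of sham pups, and 3 lower and 3 higher in that of HIBI pups. Over all miRNAs in the sham pups, 31.2%, 34%, and 22% were lower in these comparisons, in that order, and 34%, 30.7%, and 16.5% higher. In the HIBI pups 27.1%, 17.9%, and 15% of all miRNAs were lower, and 22.4%, 13%, and 13.7% higher. Summed levels of the 3 skeletal muscle miRNAs were 345 to 651 CPM in the cerebellum, 39.3 to 141 CPM in the striatum/thalamus, and 28.4 to 64.4 CPM in the cortex. The most abundant in the cerebellum, miR-206-3p, is known in that tissue too. Those of the 2 oligodendrocyte miRNAs, with miR-219a-2-3p the most abundant, were 4792 to 8318, 1046 to 4180, and 787 to 2547 CPM. For both lists every cerebellar library lay above every forebrain library.

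Sums of the other lists overlapped between the cerebellum and at least 1 forebrain region. In the order cerebellum, striatum/thalamus, and cortex they were 2556 to 10181, 1876 to 4631, and 2028 to 3747 CPM for choroid plexus and ciliated cells, where miR-204-5p was the most abundant. For erythroid cells they were 579 to 1325, 510.4 to 1420.2, and 454 to 672 CPM, with miR-486a-5p the most abundant. Myeloid cells, led by miR-146a-5p, had 397 to 965, 381 to 975, and 583 to 767 CPM. Endothelium, led by miR-126a-3p, had 2112 to 4829.6, 974 to 3126, and 2158 to 3738 CPM. Neurons and brain had 102774 to 190881, 78900.0 to 152386, and 179824 to 223731 CPM, and in the striatum/thalamus miR-124-3p was the most abundant.

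The comparison of HIBI with sham pups asks whether the injury changed the level of a member in a region, in tissue taken 30 min after the end of hypoxia. It used the criteria of the study, an unadjusted p below 0.05 and a fold change above 1.5 in the edgeR quasi-likelihood test. In the cerebellum, with 434 miRNAs tested, 2 of the 10 members met both and were lower in HIBI pups. Over all miRNAs 7.83% met both criteria and 4.15% met them and were lower, so that 2 of 10 was above the background, by few members. With adjusted p below 0.05 by edgeR there were 0 members, beside 0% of all miRNAs, 0 in DESeq2, and 3 members at an unadjusted p below 0.05 in each tool, beside 10.1% of all miRNAs in edgeR. The median log2 difference was -0.29 over the members and 0.11 over all miRNAs, and 6 members were below 0 and 4 above. The members' median was below 0 and below that of all miRNAs under each scaling tried, and scaling by library size alone moved the median of all miRNAs by 0.16. The count over all miRNAs, 34, depended on single pups: it was 62 without pup 1, 18 without pup 2, 20 without pup 3, and 82 without pup 6.

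Let-7b-5p was at 69122, 49087, 36048, and 25711 CPM in the cerebellum of the sham pups and at 18162, 26961, 27012, and 20457 CPM in that of the HIBI pups. All 4 HIBI pups lay below the mean of the sham pups, and sham pup 8 lay among the HIBI pups, so that the groups overlapped. The sham pups spread over a wide range, with pup 2 high. The log2 difference was -0.95 (SE 0.29), a 1.93-fold lower level, with an edgeR p of 0.00633. Its adjusted p was 0.432, and the exact two-sided permutation test of log2(CPM + 1) gave p = 0.0857, where 0.0286 is the smallest that 4 against 4 pups can give. It met the criteria in every alternative, and leaving out a pup gave values from -1.21 without pup 8 to -0.72 without pup 2.

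Let-7d-3p was at 8033, 6412, 4122, and 4098 CPM in the sham pups and 3115, 4189, 2570.3, and 2944 CPM in the HIBI pups. Sham pups 2 and 3 lay above every HIBI pup, HIBI pup 4 lay above sham pups 6 and 8, and all 4 HIBI pups lay below the sham mean. The log2 difference was -0.81 (SE 0.26), a 1.75-fold lower level, with an edgeR p of 0.00862 and an adjusted p of 0.432. The exact permutation p was 0.0857. It too met the criteria in every alternative, with values from -1.01 to -0.64 when a pup was left out.

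Let-7c-5p was at 132604, 91096, 88279, and 88504 CPM in the sham pups and 51939.9, 66019.8, 81261, and 72062 CPM in the HIBI pups. At these TMM-scaled levels every HIBI pup lay below every sham pup, which held for 1 of the 10 members and for 3.23% of all miRNAs, while groups did not overlap, in either direction, for 3.92%. The separation depended on the scaling, with TMM factors of 0.867 for sham pup 8 and 1.05 for HIBI pup 5. By library size alone HIBI pup 5 lay above sham pup 8, and the groups overlapped. Sham pup 2, with a TMM factor of 0.840, was far above the others, and by library size alone it was highest by a smaller gap. The log2 difference of -0.54 (SE 0.21), with an edgeR p of 0.0242, was a 1.45-fold lower level and so did not reach the criterion of fold change. The exact permutation p was 0.0286, the smallest possible, and it too was taken from the TMM-scaled levels. Both criteria were met without pup 3 (-0.60), pup 5 (-0.63), pup 6 (-0.63), or pup 8 (-0.67), and with TMM scaling computed without the members (-0.59). The other way, the p criterion was lost as well without pup 2 (-0.42, edgeR p 0.0812) or pup 4 (-0.50), and with scaling by library size only (-0.38).

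The other 7 members did not meet the criteria in the cerebellum. Let-7a-5p, the strand the others are compared with above, was at 45394, 30301, 34608, and 42379.9 CPM in sham and 20671, 27495, 36819, and 33473 CPM in HIBI pups, and its log2 difference of -0.34 (SE 0.21) went with overlapping groups. Let-7d-5p differed by -0.37 and let-7e-5p by -0.25. On the other side of 0 were let-7f-5p at 0.17, let-7g-5p at 0.15, let-7i-5p at 0.08, and miR-98-5p at 0.38. These 4 turned below 0 when the GC trend was removed, to -0.39, -0.22, -0.16, and -0.18. Without pup 5, let-7f-5p, let-7g-5p, and let-7i-5p were at -0.08, -0.07, and -0.02. Without pup 3 they were at -0.00, -0.01, and -0.03, and without pup 6 let-7i-5p was at -0.01.

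**Figure D2:**
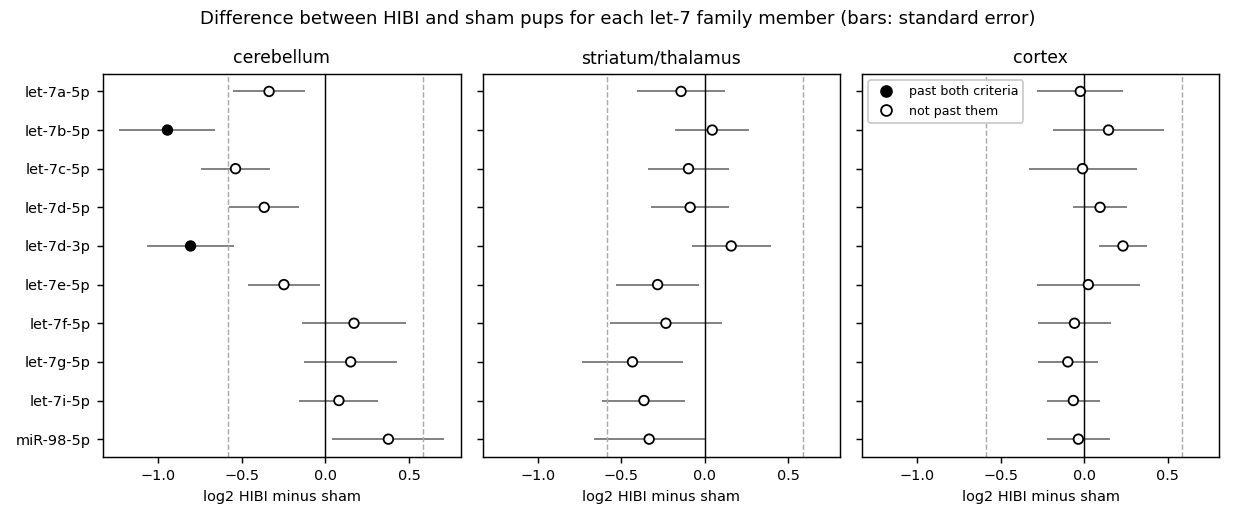
Log2 difference of HIBI minus sham (x axis) for each of the 10 members in the 3 regions; points are the edgeR estimates, bars are standard errors, and dashed lines mark a fold change of 1.5. Filled points, let-7b-5p and let-7d-3p in the cerebellum, met both criteria; let-7f-5p, let-7g-5p, let-7i-5p, and miR-98-5p lay above 0 in the cerebellum but below it with the GC trend removed.

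In the striatum/thalamus 436 miRNAs were tested and 0 members met the criteria in edgeR, beside 2.75% of all miRNAs that met them and 0.229% that met them and were lower, shares that come to less than 1 of 10 members. No member had an unadjusted p below 0.05 (0 in edgeR and 0 in DESeq2), and 0 had an adjusted p below 0.05, beside 0% of all miRNAs. The groups overlapped for all 10 members, and were apart for 1.83% of all miRNAs. Log2 differences ran from -0.43 for let-7g-5p to 0.16 for let-7d-3p. The median was -0.19, beside -0.03 over all miRNAs, and it turned to 0.07 with the GC trend removed, to 0.00 without pup 1, and to 0.11 without pup 6. The level of let-7g-5p was 7049.8, 12346, 15597, and 7900.2 CPM in sham and 6925, 7697, 12579, and 6502 CPM in HIBI pups. HIBI pup 5 lay apart from the other HIBI pups at the upper end, and without it let-7g-5p met the criteria at -0.71 (edgeR p 0.0292), the 1 member to do so. Over all miRNAs the count of 12 that met the criteria became 5 without pup 3, 38 without pup 5, 23 without pup 7, and 19 without pup 8. Let-7b-5p and let-7c-5p differed here by 0.04 and -0.10.

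In the cortex, with 410 miRNAs tested, 0 members met the criteria in edgeR or in DESeq2 and 0 had an unadjusted p below 0.05, beside 3.41% of all miRNAs that met the criteria and 0.244% that met them and were lower. An adjusted p below 0.05 was reached by 0 members and by 0.244% of all miRNAs. All 10 members overlapped between the groups, while 3.41% of all miRNAs did not. The largest difference was that of let-7d-3p. It was at 1946, 2594, 2176, and 1998 CPM in sham and 2825, 2786, 2268, and 2317 CPM in HIBI pups, a log2 difference of 0.23 (SE 0.14). The median of the members was -0.02, as over all miRNAs, and it turned to 0.00 with scaling by library size only, to 0.03 with no CPM minimum, and to 0.02 with the GC trend removed. With a pup left out it lay between -0.14 without pup 5 and 0.18 without pup 1. Let-7b-5p differed by 0.15 and let-7c-5p by -0.01. Let-7c-5p was at 19068, 31535, 62446, and 60053 CPM in the HIBI pups and at 32099, 36279, 50529.9, and 54500.0 CPM in the sham pups. HIBI pups 5 and 7 thus lay above, and HIBI pups 1 and 4 below, every sham pup.

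An effect that met the criteria in the cerebellum and not in the forebrain is not thereby shown to differ between them, so the difference itself was tested in 1 model of the 24 libraries. The effect in the cerebellum was subtracted from the mean of the effects in the cortex and striatum/thalamus. Of 435 miRNAs, 0 members passed by adjusted p in edgeR, beside 0% of all miRNAs, and 0 in DESeq2. At an unadjusted p below 0.05 there were 2 members in each tool, beside 16.1% of all miRNAs in edgeR, so that the members' share was near the background. The 2 were let-7d-3p and let-7b-5p. For let-7d-3p the difference of effects was 1.07 (SE 0.29, edgeR adjusted p 0.151), with 4 of 4 HIBI pups below the sham mean in the cerebellum, 1 of 4 in the striatum/thalamus, and 0 of 4 in the cortex. With the GC trend removed beside a pup block it passed at 1.06 (edgeR adjusted p 0.0340), where the other alternatives gave adjusted p from 0.0507 to 0.665. For let-7b-5p it was 1.10 (SE 0.40, edgeR adjusted p 0.209), with 4 of 4 HIBI pups below the sham mean in the cerebellum and 2 of 4 in each forebrain region. The median was 0.26 over the members and -0.04 over all miRNAs, and it stayed above 0 under each scaling tried. Scaling by library size only moved the median of all miRNAs by -0.19, and the fit with no CPM minimum moved it by -0.17.

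The arms of let-7d come from 1 hairpin and were counted in the same library, so their ratio does not depend on the scaling of libraries. In the cerebellum there were 0.426, 0.490, 0.3498, and 0.241 reads of let-7d-3p per read of let-7d-5p in the sham pups and 0.365, 0.382, 0.202, and 0.211 in the HIBI pups. In the striatum/thalamus the ratio was 0.495, 0.279, 0.286, and 0.445 in sham pups and 0.413, 0.652, 0.224, and 0.455 in HIBI pups. In the cortex it was 0.220, 0.286, 0.221, and 0.222 in sham pups and 0.398, 0.293, 0.205, and 0.200 in HIBI pups. Sham and HIBI pups overlapped in each region, and HIBI pup 4 had the highest ratio of the striatum/thalamus. The log2 ratio of HIBI minus sham was -0.39 in the cerebellum (exact permutation p 0.229), 0.16 in the striatum/thalamus (exact permutation p 0.686), and 0.16 in the cortex (exact permutation p 0.686). It turned to -0.07 in the striatum/thalamus without pup 4 and to -0.04 in the cortex without pup 1. Adjusted over the 6 tests of this ratio, none passed, and the lowest adjusted p was 0.0938.

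Between regions the ratio had means of 0.334 ± 0.105 in the cerebellum, 0.256 ± 0.0676 in the cortex, and 0.406 ± 0.139 in the striatum/thalamus (SD, n = 8). The log2 ratio was lower in the cortex than in the striatum/thalamus in 7 of 8 pups, by -0.63 (SD of the differences 0.55), with an exact paired permutation p of 0.0156 and an adjusted p of 0.0938. The cortex differed from the cerebellum by -0.35 (exact permutation p 0.0625, adjusted p 0.188), with 6 of 8 pups lower. Without pup 1 this was -0.42, with an exact permutation p of 0.0313. The striatum/thalamus was above the cerebellum by 0.28 in 6 of 8 pups (exact permutation p 0.234, adjusted p 0.352).

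The tables held 13 other entries named for let-7 or miR-98. Let-7j, a longer strand whose first 22 bases are those of let-7i-5p with G8U, had 32253 counts over the 24 libraries, and let-7b-3p had 23396. The next was let-7e-3p with 4220, and let-7f-2-3p had 3. Counts of let-7j per 100 counts of let-7i-5p had means of 6.94 ± 1.02 in the cerebellum, 7.53 ± 0.534 in the cortex, and 6.88 ± 0.547 in the striatum/thalamus (SD, n = 8). The ratio was higher in the cortex than in the striatum/thalamus in 7 of 8 pups, which was not tested. Let-7k, which shares the seed of let-7a-5p, had 19 counts. MiR-1961 shares it too and has no entry in the tables.

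Let-7b-3p, the opposite arm of let-7b-5p, met the criteria in the cerebellum. It was at 1389.6, 993, 624, and 721 CPM in sham pups and 672, 542, 485, and 576 CPM in HIBI pups, with 1 HIBI pup within the range of the sham pups. Its log2 difference was -0.68 (edgeR p 0.0232). Both arms of this hairpin were thus lower in HIBI pups. Of the 5 other 3p arms tested there, with values from -0.45 for let-7i-3p to 0.30 for let-7a-1-3p, 0 met the criteria or had an unadjusted p below 0.05 in edgeR or in DESeq2, and let-7j was at 0.21. Of these entries 0 in the striatum/thalamus and cortex met the criteria or had an unadjusted p below 0.05 in either tool. Between regions of the sham pups, let-7b-3p was lower than in the cerebellum, at -1.98 in the cortex and -1.49 in the striatum/thalamus. Let-7i-3p was lower in the striatum/thalamus than in the cerebellum (-2.34) and higher in the cortex than in the striatum/thalamus (1.49), as was let-7j (-0.86 and 0.99), and these 6 differences passed by edgeR's adjusted p. Of the 7 entries tested, 6 were lower in the striatum/thalamus and 5 lower in the cortex than in the cerebellum, and 2 were higher in the cortex than in the striatum/thalamus, by edgeR. DESeq2 passed as many in each. The shares over all miRNAs were 31.2%, 34%, and 16.5%. Let-7e-3p, unlike let-7e-5p, passed in no regional comparison of the sham pups.

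Several members are made from a primary transcript that also carries miR-99, miR-100, or miR-125. Of these 5 neighbours, miR-125a-5p, which lies with let-7e, met the criteria in the cerebellum. It was at 94062, 73479, 48009, and 61500.3 CPM in sham pups and 46354, 44948, 32839, and 41387 CPM in HIBI pups. These TMM-scaled levels did not overlap between the groups, though by library size alone HIBI pup 1 lay above sham pup 6. The difference of HIBI from sham pups was -0.72 on the log2 scale (edgeR p 0.00949), beside -0.25 for let-7e-5p and -0.49 for miR-99b-5p of the same transcript. With let-7c-5p at -0.54, miR-99a-5p and miR-125b-5p, which lie with let-7c-1 but not with let-7c-2, were at -0.12 and -0.11, and miR-100-5p, which lies with let-7a-2, was at -0.19. Mature miR-125b-5p is also made beside miR-100 and let-7a-2, so the counts do not set the products of 1 such transcript side by side. Of the 5, 0 in the striatum/thalamus and cortex met the criteria or had an unadjusted p below 0.05 in edgeR or DESeq2. Among sham pups miR-125b-5p was higher in the striatum/thalamus than in the cerebellum by 0.99 (edgeR adjusted p 7.75e-05), where let-7c-5p was at -1.05 and miR-99a-5p at -0.87. MiR-125a-5p was lower in the cortex than in the striatum/thalamus, at -1.03 (edgeR adjusted p 0.000872), beside -1.19 for let-7e-5p. Whether such pairs differ from each other was not tested.

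Markers of other cell types moved with the injury comparison in part, and their part in the result was not tested. Of 3 listed erythroid miRNAs all were found, and their summed cerebellar level was 1282, 1155, 735, and 1325 CPM in sham and 658, 787, 579, and 725 CPM in HIBI pups. All HIBI sums lay below those of sham pups 2, 3, and 8. The most abundant, miR-486a-5p, met the criteria at -0.86 (edgeR p 0.00817), miR-451a was at -0.23, and miR-144-3p lay under the CPM minimum and was at 0 in the striatum/thalamus of all 4 HIBI pups. Of 4 choroid plexus and ciliated cell miRNAs, all found, 0 met the criteria or had an unadjusted p below 0.05 in the cerebellum by edgeR, and 2 met the criteria by DESeq2. Their sum was 10181, 4633, 2556, and 4619 CPM in sham and 3327, 2821, 2755, and 4052 CPM in HIBI pups. Here sham pup 2, which was also high in let-7b-5p and let-7c-5p, was the highest, and the most abundant miRNA, miR-204-5p, was at -0.72 (edgeR p 0.0543). Of the 4, miR-34b-3p met the criteria in the striatum/thalamus at 0.75.

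For 3 skeletal muscle miRNAs the cerebellar sums were 601, 447, 535, and 494 CPM in sham and 345, 473, 651, and 454 CPM in HIBI pups, which overlapped. The most abundant there, miR-206-3p, was at -0.53 (edgeR p 0.0233), under the criterion of fold change, and 1 of the 3, miR-1a-3p, met the criteria at 1.05 (edgeR p 0.0496). The 3 myeloid miRNAs summed to 491, 397, 645, and 716 CPM in sham and 514, 695, 965, and 812 CPM in HIBI pups, with miR-146a-5p the most abundant at 0.52, miR-223-3p at 0.47, and miR-155-5p at -0.35. The 2 endothelial miRNAs summed to 2112, 2251, 3398, and 4040.2 CPM and 2481, 3134, 4829.6, and 4313 CPM, with miR-126a-3p the most abundant at 0.35. Sums of both lists overlapped between the groups. The 2 oligodendrocyte miRNAs summed to 5236, 6248, 7084, and 6460.1 CPM and 6379.8, 5544, 8318, and 4792 CPM, with miR-219a-2-3p the most abundant at 0.02 and miR-338-3p at 0.42. The 3 of neurons and brain summed to 147147, 120110.0, 145816, and 190881 CPM and 102774, 166726, 181621, and 168951 CPM, with miR-9-5p at 0.19, miR-124-3p at -0.04, and miR-128-3p at -0.20. In these last 4 lists 0 miRNAs met the criteria or had an unadjusted p below 0.05 in the cerebellum, in edgeR or in DESeq2.

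The median of the members was below 0 in the striatum/thalamus too, and listed markers lay on both sides of 0 there. Those of neurons and brain were at -0.40 for miR-124-3p (edgeR p 0.0307), -0.34 for miR-9-5p, and -0.35 for miR-128-3p. Those of oligodendrocytes were at -0.61 for miR-219a-2-3p and -0.62 for miR-338-3p, and those of skeletal muscle at -0.72 for miR-1a-3p and -0.68 for miR-206-3p. The endothelial miR-126a-3p was at -0.45. Myeloid miRNAs were at -0.51 for miR-146a-5p, -0.10 for miR-155-5p, and 0.14 for miR-223-3p, and erythroid ones at -0.86 for miR-451a and 0.23 for miR-486a-5p. The other choroid plexus and ciliated cell miRNAs lay above 0, at 0.31 for miR-204-5p, 0.59 for miR-34c-5p, and 0.72 for miR-449a-5p. Beside miR-34b-3p none of these met the criteria in edgeR or DESeq2. No listed miRNA was at 0 in all 24 libraries, and in the cortex 0 listed miRNAs met the criteria or had an unadjusted p below 0.05 in either tool.

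The strands also differ in base composition, with 7 G or C bases in let-7f-5p and miR-98-5p, 8 in let-7a-5p and let-7g-5p, 9 in let-7c-5p, let-7d-5p, let-7e-5p, and let-7i-5p, 10 in let-7b-5p, and 11 in let-7d-3p. Across the 10 members the GC content and the log2 difference of HIBI minus sham had a Pearson r of -0.85 in the cerebellum, 0.83 in the cortex, and 0.73 in the striatum/thalamus. Across all miRNAs tested that had a sequence, r was -0.23 in the cerebellum (368 miRNAs), 0.28 in the cortex (353), and 0.23 in the striatum/thalamus (372). These are descriptions, since the points share libraries and the members share most of their sequence. With a trend on GC content removed from each library, a correction chosen after seeing the data, 5 members met the criteria in the cerebellum, beside 12% of all miRNAs. They were let-7a-5p at -0.69, let-7b-5p at -1.10, let-7c-5p at -0.79, let-7d-5p at -0.61, and let-7d-3p at -0.86, all lower in HIBI pups. In the striatum/thalamus and cortex 0 met them with this correction by edgeR, beside 4.3% and 3.68% of all miRNAs, and 0 had an unadjusted p below 0.05. The part of base composition in the results was not tested further.

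Over the 24 libraries the members did not move as 1 block. Log2 levels of let-7f-5p and let-7g-5p had a Pearson r of 0.98, those of let-7b-5p and let-7c-5p 0.95, those of let-7a-5p and let-7c-5p 0.91, and those of let-7g-5p and let-7i-5p 0.90. Let-7f-5p and miR-98-5p, of which the let-7f-2 and miR-98 hairpins lie together in Huwe1 while let-7f-1 does not, had 0.90. Let-7e-5p and let-7i-5p ran opposite to each other, with -0.50, and let-7d-3p had 0.41 with let-7d-5p and -0.34 with miR-98-5p. These values have no p, and they share regional differences, scaling, and reads of near-identical strands.

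Likeness was sought among 413 miRNAs, which left out the members, the other let-7 entries, and the miR-99, miR-100, and miR-125 neighbours but not the listed markers. The 5 most like the mean of the 9 5p members over the 24 libraries were miR-26a-2-3p (Pearson r 0.85), miR-30a-3p (0.82), miR-199a-3p (0.81), miR-199b-3p (0.80), and miR-340-3p (0.79). Those most like let-7d-3p were miR-423-5p (0.91), miR-320-3p (0.91), and miR-1306-5p (0.90). Likeness was taken on log2 CPM, and the points share pups, regions, depth, and scaling.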

How the data were processed

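Small RNA was sequenced from the cerebellum, the striatum/thalamus, and the cortex of 4 HIBI and 4 sham mouse pups, and the same animal gave the 3 regions. The deposited values are raw counts of reads per mature miRNA, which the authors obtained with Bowtie2 against the mature mouse entries of miRBase, in a release they did not state. The tables also hold the authors' own edgeR columns of log2 fold change, mean log2 CPM, p, and FDR, which were not used. The 20 castor bean entries, with 84 counts (0.000156% of the total), entered neither library sizes nor tests.

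Counts were scaled by TMM and tested in R 4.3.3 with the quasi-likelihood fit of edgeR 4.0.16 and limma 3.58.1, for miRNAs above a mean of 10 CPM in the libraries compared. P-values were adjusted by Benjamini-Hochberg over all miRNAs tested. A call of HIBI against sham needed an unadjusted p below 0.05 and a fold change above 1.5, and one between regions or between injury effects an adjusted p below 0.05. The exact two-sided permutation test used log2(CPM + 1) over 70 arrangements of the pups, and the arm ratio was compared between regions by changing signs within pups. Sequences were read with Python 3.11.15 and pandas 2.3.3, and drawn values with matplotlib 3.10.9. The code was tested on simulated data.

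As a check of the pairing, each pup's deviations from its group mean were correlated between regions over 435 miRNAs. The median r was 0.160 for striatum/thalamus and cerebellum, 0.259 for cortex and cerebellum, and 0.190 for cortex and striatum/thalamus, above 0.1 in 5, 7, and 5 of 8 pups.

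The members and lists were chosen with earlier results of these data known. Values are given by name for the members in every comparison, for the other arms of their hairpins and entries with the same seed, and for miR-99a, miR-125b, miR-99b, miR-125a, and miR-100 of the same primary transcripts. The miRNAs most like the members, 5 for the family and 3 for let-7d-3p, were those of highest Pearson correlation of log2 CPM with a prior count of 1. The marker lists were those of neurons, choroid plexus and ciliated cells, erythroid cells, myeloid cells, endothelium, oligodendrocytes, and skeletal muscle. Alternatives were scaling by library size only, TMM computed without the members, no CPM minimum, DESeq2 1.42.0, the pup as a block, each pup left out, 10 counts added to each let-7d arm, all entries as the denominator, and removal of a loess trend on GC content (span 0.75), chosen after seeing the data. No block was possible for HIBI against sham, since a pup is HIBI or sham.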

Additional observations from a re-analysis of the deposited data

Results flagged for a closer look

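In each group of 4 pups, the highest and the lowest library were compared with the other 3 by Dixon's test, for the levels of the 10 members, their percent of the mouse counts, and the ratio of the let-7d arms. Of 72 groups, 6 held a library far from the others, and chance alone gives about 1 in 20. In the cerebellum, let-7c-5p stood at 132604 CPM in sham pup 2, against 88279 to 91096 in the other sham pups. Also in the cerebellum, let-7e-5p stood at 6622 CPM in HIBI pup 5, against 4107 to 4499 in the other HIBI pups. Let-7i-5p stood low in the cerebellum of HIBI pup 1, at 6076 CPM against 11670.0 to 12769.9. That library had the fewest counts of all, 1254185, and the highest TMM factor, 1.24, which lowers its CPM. By library size alone it was still the lowest, by a smaller gap. The cerebellum thus held 3 of the 6, each for another member and in another pup.

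HIBI pup 5 stood apart in the striatum/thalamus as well. Its let-7e-5p was at 11807 CPM there, against 8788 to 9187 in the other HIBI pups, and the members made up 17.6% of its mouse counts, against 11.0% to 11.9%. In the cortex of sham pup 3, let-7d had 0.286 reads of the 3p arm per read of the 5p arm, against 0.220 to 0.222 in the other sham pups. The causes of these values were not tested.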

How the results depend on the processing

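Each member's log2 difference in each of the 10 comparisons was recomputed under every alternative, 100 values for those that applied to all. Direction and call were kept by 98 values with scaling by library size only, 98 with TMM scaling computed without the members, 98 with DESeq2, and 84 with no CPM minimum. With the pup as a replicate block 62 kept them and 7 passed that had not, all in the HIBI pups, and the block changed no other call. A pup is HIBI or sham, so no block was possible for HIBI against sham. With a pup left out 464 kept direction and call, 26 lost a call, 8 gained one, and 62 turned in sign. Let-7b-5p and let-7d-3p kept their calls in the cerebellum under all alternatives. 

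The removal of a trend on GC content was chosen after seeing the data. For HIBI minus sham, 16 values then kept direction and call, 11 turned in sign, and 3 gained a call. In the other comparisons, where the trend was removed beside a pup block, 45 kept them, 17 turned in sign, 4 lost a call, and 4 gained one. With the trend on GC content removed, the number of members past the criteria became 5 for HIBI minus sham in the cerebellum. The sign turned for let-7f-5p (-0.39), let-7g-5p (-0.22), let-7i-5p (-0.16), and miR-98-5p (-0.18) in HIBI minus sham in the cerebellum and for let-7a-5p (0.12), let-7c-5p (0.088), let-7d-5p (0.10), and let-7f-5p (0.058) in HIBI minus sham in the striatum/thalamus. It turned for let-7c-5p (0.012), let-7i-5p (0.021), and miR-98-5p (0.0030) in HIBI minus sham in the cortex. With scaling by library size only, the sign turned for let-7c-5p (0.012) in HIBI minus sham in the cortex and for let-7e-5p (-0.0090) in cortex minus cerebellum in HIBI pups. With TMM scaling computed without the members, the sign turned for let-7c-5p (0.0033) in HIBI minus sham in the cortex. With DESeq2, the sign turned for let-7c-5p (0.0060) in HIBI minus sham in the cortex and for let-7d-5p (0.013) in cortex minus striatum/thalamus in sham pups. With no CPM minimum, the number of members past the criteria became 3 for cortex minus cerebellum in sham pups and 1 for cortex minus striatum/thalamus in HIBI pups. It went from 5 to 6 for striatum/thalamus minus cerebellum in HIBI pups with miR-98-5p, and let-7f-5p passed in cortex minus striatum/thalamus in sham pups (0.58). The sign turned for let-7a-5p (0.026), let-7c-5p (0.042), and miR-98-5p (0.0089) in HIBI minus sham in the cortex and for miR-98-5p (-0.024) in striatum/thalamus minus cerebellum in sham pups. It turned for let-7e-5p (0.013), let-7g-5p (0.028), and let-7i-5p (0.11) in cortex minus cerebellum in sham pups and for let-7c-5p (0.067) and let-7d-5p (0.21) in cortex minus striatum/thalamus in sham pups. It turned for let-7c-5p (0.011) in cortex minus striatum/thalamus in HIBI pups. With the pup as a replicate block, the number of members past the criteria became 8 for striatum/thalamus minus cerebellum in HIBI pups, 2 for cortex minus cerebellum in HIBI pups, and 5 for cortex minus striatum/thalamus in HIBI pups. The sign turned for let-7e-5p (-0.0041) in cortex minus cerebellum in HIBI pups. With the GC trend removed beside a pup block, the number of members past the criteria became 3 for striatum/thalamus minus cerebellum in HIBI pups, 4 for cortex minus striatum/thalamus in HIBI pups, and 1 for the injury effect in the forebrain minus that in the cerebellum. The sign turned for miR-98-5p (-0.067) in cortex minus cerebellum in sham pups and for miR-98-5p (-0.12) in cortex minus striatum/thalamus in sham pups. It turned for let-7a-5p (0.66), let-7c-5p (0.16), let-7d-5p (0.36), and miR-98-5p (0.16) in striatum/thalamus minus cerebellum in HIBI pups and for let-7a-5p (0.011), let-7d-5p (0.14), let-7g-5p (0.024), let-7i-5p (0.21), and miR-98-5p (0.12) in cortex minus cerebellum in HIBI pups. It turned for let-7d-5p (-0.22) and miR-98-5p (-0.038) in cortex minus striatum/thalamus in HIBI pups and for let-7f-5p (0.41), let-7g-5p (0.13), let-7i-5p (0.11), and miR-98-5p (0.16) in the injury effect in the forebrain minus that in the cerebellum. Of all these, let-7a-5p between the striatum/thalamus and the cerebellum was the 1 value that passed after its sign turned, with an edgeR adjusted p of 0.00841. The cause of these changes was not tested.

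With a pup left out, values ran as follows, from the lowest to the highest. In HIBI minus sham in the cerebellum the range was let-7f-5p -0.080 to 0.40, let-7g-5p -0.071 to 0.34, and let-7i-5p -0.028 to 0.26. In HIBI minus sham in the striatum/thalamus the range was 0 to 1 members past the criteria (1 without pup 5), let-7a-5p -0.33 to 0.11, let-7b-5p -0.049 to 0.25, let-7c-5p -0.26 to 0.13, let-7d-5p -0.24 to 0.11, let-7d-3p -0.048 to 0.33, and let-7f-5p -0.58 to 0.10. In HIBI minus sham in the cortex the range was let-7a-5p -0.20 to 0.17, let-7b-5p -0.083 to 0.42, let-7c-5p -0.23 to 0.25, let-7e-5p -0.17 to 0.25, let-7f-5p -0.21 to 0.066, let-7i-5p -0.12 to 0.063, and miR-98-5p -0.13 to 0.092. In striatum/thalamus minus cerebellum in sham pups the range was miR-98-5p -0.24 to 0.45. In cortex minus cerebellum in sham pups the range was 3 to 5 members past the criteria (3 without pup 8), let-7i-5p -0.24 to 0.050, and miR-98-5p -0.072 to 0.40. In cortex minus striatum/thalamus in sham pups the range was 1 to 2 members past the criteria (1 without pup 2 and 1 without pup 8), let-7c-5p -0.41 to 0.0024, let-7d-5p -0.17 to 0.14, and miR-98-5p -0.15 to 0.44. In striatum/thalamus minus cerebellum in HIBI pups the range was 1 to 5 members past the criteria (2 without pup 4 and 1 without pup 7) and let-7d-3p -0.022 to 0.30. In cortex minus cerebellum in HIBI pups the range was 0 to 1 members past the criteria (0 without pup 4) and let-7e-5p -0.19 to 0.32. In cortex minus striatum/thalamus in HIBI pups the range was 0 to 3 members past the criteria (1 without pup 1, 1 without pup 4, and 0 without pup 7), let-7a-5p -0.39 to 0.0083, let-7b-5p -0.38 to 0.042, and let-7c-5p -0.30 to 0.14. In the injury effect in the forebrain minus that in the cerebellum the range was let-7e-5p -0.033 to 0.34. 

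For the log2 ratio of the let-7d arms, HIBI minus sham ran from -0.067 to 0.45 in the striatum/thalamus and from -0.043 to 0.29 in the cortex, and cortex minus cerebellum from -0.42 to -0.27. The first was negative without pup 4 and the second without pup 1, and without pup 1 the third had an exact p of 0.0313, below 0.05. Adding 10 counts to each arm changed no result of that ratio, and counting all entries changed no share of the members. The cause was not tested in any of these. Every member had 651 counts or more in each library, so depth limits them less than the number of pups, while the 3p arms under the CPM minimum rest on few reads.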
